A study of Mus musculus with 90 samples.

Results

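Immediate-early genes are transcribed within minutes of a stimulus, without the need for new protein. Kinases of the MAPK cascade, the cAMP pathway and stress pathways reach them through factors that already sit on their promoters, such as CREB and the serum response factor with its partners, and their short-lived mRNAs make them sensitive markers of recent signaling. Many of them encode transcription factors, among them the AP-1 proteins, which are dimers of a Fos and a Jun family member, and in liver they are known for their rise after partial hepatectomy, injury and growth factor signals.

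Described here are 10 such genes in mouse liver: *Fos*, *Fosb*, *Jun*, *Junb* and *Jund* (AP-1 subunits), *Atf3* (a stress-induced factor that pairs with Jun proteins), *Egr1* (a zinc finger factor downstream of MAPK signals), *Ier2* and *Ier3* (immediate early response genes, of which *Ier3* affects cell survival) and *Btg2* (an antiproliferative cofactor of mRNA deadenylation). They were chosen by symbol, 10 of the 24308 gene symbols in the expression table. Where a symbol had several RefSeq IDs, the one with the highest mean over all libraries was read. *Fosb* and *Jund* have 2 RefSeq IDs each.

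The study examined how feeding, glucocorticoids and insulin shape liver gene expression in mice trained to eat only at night (night-restricted feeding, NRF), and the 10 genes were read in 54 RNA libraries of single livers from 5 experiments. ZT counts hours from lights on, with food given at lights off, and fed livers had had access to the meal until ZT14. In the NRF experiment, ribosomal RNA was depleted from liver RNA of wild-type C57BL/6N males of 10 weeks, taken at ZT10, ZT14-unfed and ZT14-fed (n = 2 each). The other 4 experiments used poly(A)-enriched RNA, with all livers taken at ZT14. Wild-type C57BL/6N mice of 10 weeks on NRF were injected intraperitoneally before the meal with vehicle (PBS), with the synthetic glucocorticoid dexamethasone (dex, 1 mg/kg), with the insulin receptor antagonist S961, or with dex and S961, and were fed; a further vehicle group stayed unfed (n = 4 each). The S961 dose is 44 nM per mouse in the labels and 44 nmol/kg in the methods, which do not name the same amount, so the dose is uncertain. The labels write C57BL/6 for every strain, and the substrains given here are those of the methods. L-GRKO mice carried floxed alleles of *Nr3c1*, the gene of the glucocorticoid receptor (GR), on a C57BL/6N background and received an AAV with CRE under the liver-specific Tbg promoter, their controls were *Nr3c1* fl/fl mice given AAV-GFP, and all were unfed on NRF (n = 4 each). L-IRSdKO mice were *Irs1* fl/fl, *Irs2* fl/fl with Alb-Cre, which is active in hepatocytes, on a C57BL/6J background, their controls were fl/fl mice without Cre, and both groups were trained at 10 weeks of age, injected with 1 mg/kg dex and fed, so that no group of this experiment was without dex (n = 4 each). In the obesity experiment, wild-type C57BL/6 males had high-fat diet (obese) or chow (lean) ad libitum for 10 weeks from 5 weeks of age, then 4 days of NRF, and were taken unfed or fed (n = 3 each).

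Expression is given in RPKM as deposited, in which reads are scaled to transcript length and to the depth of the library. From the step that 1 read makes in the values, the totals behind them were estimated at 26.0 to 38.1 M reads (mega-reads) in the NRF libraries, 6.47 to 13.45 M in the injected mice and 3.64 to 4.48 M in the L-IRSdKO experiment. In the L-GRKO and obesity experiments the step was less clear, with estimates from 16.7 to 62.0 M. The paper lists more reads than estimated here for every L-IRSdKO and control library, and fewer for AAV-GFP control replicate 4. Read numbers derived from these estimates are therefore approximate. All 6 hepatocyte markers were found in every group, but their summed level was 2232 to 2874 RPKM in the 8 L-IRSdKO and control libraries against 33097 to 78403 RPKM in the other libraries, so RPKM levels were not compared between experiments. *Nr3c1* was lower in L-GRKO livers (a log2 fold change of -1.58) and *Irs1* in L-IRSdKO livers (-2.66). *Irs2* did not pass the test in L-IRSdKO livers (adjusted p = 0.308) and its groups overlapped, with 0.272, 1.002, 0.932 and 0.886 RPKM against 0.614, 1.63, 5.61 and 0.929 RPKM in controls.

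The sequences beside *Junb* and *Btg2* are shown first, because both were lower after the meal in lean mice and higher with the loss of *Irs1* and *Irs2*, and *Btg2* was also higher with dex. *Egr1* was also lower after the lean meal and higher with the loss of *Irs1* and *Irs2*, and was not called with dex. No promoter entry was available for *Egr1*, and its GR peak is not shown. The first line gives the 250 bases before the start of *Junb* (RefSeq, GRCm38.p6, minus strand, chr8:84978749-84978998), with the core of the forkhead (FOXO) motif, TGTTTAC, and the core of the cAMP response element, TGACG, in capitals. The second line gives the FOXO1 peak at 10.9 kb before that start (mm9, plus strand, chr8:87513475-87513654), with the same FOXO core in capitals. The third line gives the 250 bases before the start of *Btg2* (RefSeq, GRCm38.p6, minus strand, chr1:134079156-134079405), with a full cAMP response element, TGACGTCA, in capitals. The fourth line is a GR peak 20.1 kb before that start (mm9, plus strand, chr1:135995728-135995907), which a FOXO1 peak overlaps. It holds neither the FOXO core nor the core of the glucocorticoid response element, TGTTCT.
Junb promoter: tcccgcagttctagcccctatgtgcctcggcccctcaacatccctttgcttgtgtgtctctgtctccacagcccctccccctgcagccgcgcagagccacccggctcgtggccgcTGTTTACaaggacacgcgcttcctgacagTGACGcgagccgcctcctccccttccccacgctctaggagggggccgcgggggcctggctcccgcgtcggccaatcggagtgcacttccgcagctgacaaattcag
Junb distal FOXO1 peak: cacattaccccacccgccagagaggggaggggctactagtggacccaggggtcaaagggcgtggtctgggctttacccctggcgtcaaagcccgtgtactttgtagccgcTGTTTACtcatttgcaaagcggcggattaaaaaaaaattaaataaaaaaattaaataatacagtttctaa
Btg2 promoter: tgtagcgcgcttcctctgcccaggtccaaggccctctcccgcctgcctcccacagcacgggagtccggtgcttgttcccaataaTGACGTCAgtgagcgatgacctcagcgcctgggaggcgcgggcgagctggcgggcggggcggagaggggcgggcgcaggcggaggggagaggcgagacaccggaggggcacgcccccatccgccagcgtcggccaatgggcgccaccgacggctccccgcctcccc
Btg2 GR peak: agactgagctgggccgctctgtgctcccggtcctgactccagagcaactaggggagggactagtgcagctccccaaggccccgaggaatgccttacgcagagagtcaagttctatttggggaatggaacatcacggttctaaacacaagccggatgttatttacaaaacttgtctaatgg

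Each motif was searched on both strands. The FOXO core stands 135 to 129 bases before the start of *Junb*, and *Junb* was the only one of the 8 members with a promoter in the RefSeq table that held it, against 3.17% of all 32851 promoters. The full cAMP response element stands 166 to 159 bases before the start of *Btg2*, again in 1 of the 8, against 1.55% of all promoters. The short core TGACG occurred in *Fos*, *Fosb*, *Junb*, *Atf3* and *Btg2* (17.8% of all promoters), where the *Btg2* matches lie within the full element. The AP-1 site TGANTCA was in none of the 8 (6.75% of all), nor was the CArG box bound by serum response factor (1.47% of all). *Egr1* and *Ier2* had no entry. A match is a description of letters in the window.

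Bound chromatin around the 10 genes was read from GR and FOXO1 peak lists of unfed livers at ZT14, and open chromatin from sites that the authors called on DNase reads pooled over all replicates, fed and unfed, with coordinates in mm9. GR peaks lay within 50 kb of the start of 8 of 10 genes (47.7% of the 9925 expressed genes with a position) and FOXO1 peaks near 7 of 10 (50.4%). DNase hypersensitive sites (DHSs) lay near 10 of 10 (99.7%). The lists give positions only, so the strength of a site is unknown.

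*Junb* (chr8:87500811-87502617, minus strand, 1 exon) had 2 FOXO1 peaks and no GR peak within 50 kb. The nearer FOXO1 peak (chr8:87502664-87502843) overlapped a DHS, and its 180 bases are identical to those from 196 to 17 bases before the start in the promoter printed above, including the FOXO core. That core is found in 18.8% of the 8546 FOXO1 peaks. *Btg2* (chr1:135971747-135975697, minus strand, 2 exons) had GR and FOXO1 peaks that overlapped each other both 7.0 kb after its start, past the end of the gene, and 20.1 kb before its start, and the latter pair lay on a DHS. *Atf3* (chr1:192994175-193007219, minus strand) had a GR peak at 0.1 kb before its start (chr1:193007244-193007423), over a DHS, and another in its exon sequence. *Fos* (chr12:86814840-86818223, plus strand) had 1 site with GR and FOXO1 peaks, 26.1 kb before its start.

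The single-exon genes *Jun* (chr4:94715725-94718913, minus strand) and *Ier2* (chr8:87185230-87186751, minus strand) had GR peaks within the exon, which in *Ier2* overlapped a FOXO1 peak. *Ier2* also had overlapping GR and FOXO1 peaks 19.6 kb after its start and a GR peak 44.5 kb before it. *Egr1* (chr18:35020861-35024638, plus strand) had a GR peak 4.5 kb after its start and no FOXO1 peak within 50 kb. *Ier3* (chr17:35958629-35959868, plus strand) had GR peaks 6.9 and 44.6 kb before its start, of which the latter overlapped a FOXO1 peak, and another FOXO1 peak 16.7 kb after its start. *Jund* (chr8:73221638-73224515, plus strand, 1 exon) had 2 peaks of each factor, and *Fosb* (chr7:19888070-19895394, minus strand) had 1 FOXO1 peak, in an exon of *Rtn2*. The annotation places a gene on the opposite strand over *Jund* and over *Egr1*, and the strand counted is not given in the sources used here, so reads of these genes and of their partners cannot be told apart.

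Among the members, *Jund* had the highest mean level and *Fosb* the lowest in all 5 experiments. *Jund* averaged 7.49 RPKM in the NRF livers, 12.04 in the injected mice, 11.7 in the L-GRKO experiment, 36.7 in the L-IRSdKO experiment and 10.9 in the obesity experiment. *Ier2* was next to it in the obesity experiment with 10.6 RPKM, and *Junb* in the NRF and injected livers with 5.58 and 10.97 RPKM, where the ranges of *Junb* and *Jund* overlapped. *Fos* itself was low, at 0.141 to 0.357 RPKM in the NRF livers, on 8 to 23 reads. *Fosb* ranged from 0 to 0.431 RPKM over all libraries, with an estimated median of at most about 1 read in the NRF, injected, L-IRSdKO and obesity livers, and entered no test. A gene was tested where its mean over the experiment was at least 0.5 RPKM, which left 6 members in the NRF experiment (not *Fos*, *Fosb*, *Egr1* and *Ier3*), 9 each in the injected, L-GRKO and L-IRSdKO experiments (not *Fosb*) and 8 in the obesity experiment (not *Fos* and *Fosb*).

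**Figure D1:**
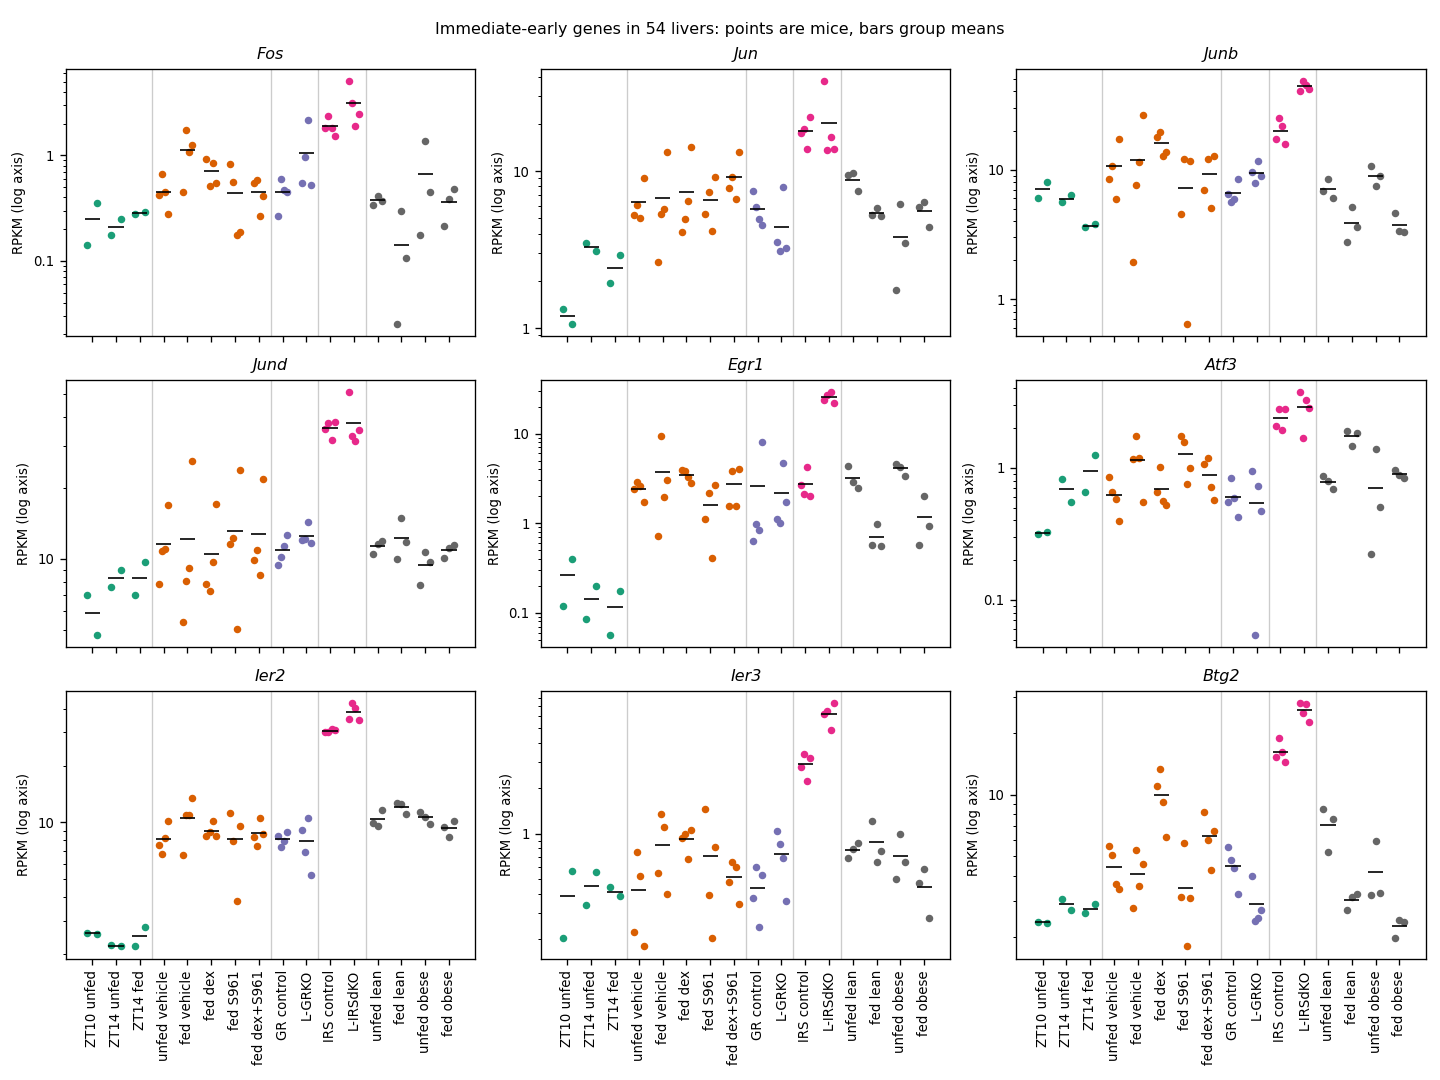
Level of 9 members (RPKM, vertical log axes) in every library, with 1 point per mouse, bars at the group means and the groups of the 5 experiments side by side; *Fosb* is left out because it was at or near 0. Within the L-IRSdKO experiment *Egr1* ranged from 2.02 to 29.1 RPKM, while *Ier2* stayed between 30.0 and 42.9 RPKM; levels are not compared between experiments.

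More members passed in livers without *Irs1* and *Irs2* than in any other comparison. These genes encode docking proteins through which the insulin receptor signals. In fed, dex-treated L-IRSdKO livers, 5 of 9 tested members were higher than in controls (*Egr1*, *Junb*, *Ier3*, *Btg2* and *Ier2*) and none was lower, at a Benjamini-Hochberg adjusted limma p under 0.05. Of all 12963 genes tested, 17.4% passed, 9.04% as higher, and 12.1% were higher without overlap of the groups. The median log2 difference was 0.55 over the 9 members and 0.03 over all genes. Every log2 difference in the text is on the scale of log2(RPKM + 0.5), which understates the change of low genes.

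*Egr1* was at 2.68, 2.12, 4.24 and 2.02 RPKM in the 4 control livers and at 23.5, 26.6, 29.1 and 21.8 RPKM in the 4 L-IRSdKO livers. The groups lay far apart, with the lowest L-IRSdKO liver over 5 times the highest control. The mean was 9.14-fold higher, a log2 difference of 3.02 ± 0.20 (SE, n = 4 per group; adjusted p = 0.000339), and it passed under every alternative tried.

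*Junb* was at 17.1, 24.8, 21.5 and 15.8 RPKM in controls and at 40.5, 48.2, 44.9 and 41.5 RPKM in L-IRSdKO livers, without overlap. Its log2 difference was 1.14 ± 0.14 (SE; adjusted p = 0.0025). *Ier3* showed the same separation at a lower level, with 2.77, 3.36, 2.24 and 3.20 RPKM in controls and 6.27, 6.53, 4.92 and 7.36 RPKM in L-IRSdKO livers, a log2 difference of 1.00 ± 0.16 (SE; adjusted p = 0.0064). The *Ier3* values rested on few reads, an estimated 9.3 to 14.5 in controls and 20.7 to 37.3 in L-IRSdKO livers. *Btg2* was at 15.4, 19.0, 16.2 and 14.5 RPKM in controls and at 28.1, 25.1, 27.7 and 22.8 RPKM in L-IRSdKO livers. All L-IRSdKO livers were again above all controls, with a log2 difference of 0.66 ± 0.11 (SE; adjusted p = 0.0064).

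*Ier2* moved least among those that passed, from 30.3, 30.0, 31.2 and 30.7 RPKM to 35.3, 42.9, 40.6 and 34.9 RPKM, a log2 difference of 0.32 ± 0.08 (SE; adjusted p = 0.0302). The groups did not overlap, but the call for *Ier2* depended on single libraries. It was lost when any of the 4 controls, L-IRSdKO replicate 2 or L-IRSdKO replicate 3 was left out, with log2 differences of 0.27 to 0.33 and adjusted p between 0.0538 and 0.0872, and stayed without L-IRSdKO replicate 1 or 4.

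The remaining 4 tested members did not pass. *Jun* was at 17.6, 18.6, 13.8 and 22.3 RPKM in controls and at 37.6, 13.7, 16.5 and 13.7 RPKM in L-IRSdKO livers, where 1 mouse, replicate 1, stood above the others, and the log2 difference was 0.05 (95% interval -0.64 to 0.75). *Jund* differed by 0.05 (-0.28 to 0.38) and *Atf3* by 0.19 (-0.32 to 0.70). *Fos* was at 1.84, 2.37, 1.82 and 1.55 RPKM in controls and at 5.09, 3.17, 1.92 and 2.45 RPKM in L-IRSdKO livers, an overlap of values with a log2 difference of 0.55 (-0.03 to 1.13; adjusted p = 0.172). The L-IRSdKO liver with the highest *Jun* also had the highest *Jund* (51.0 RPKM), *Fos* and *Atf3* (3.74 RPKM) of its group.

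**Figure D2:**
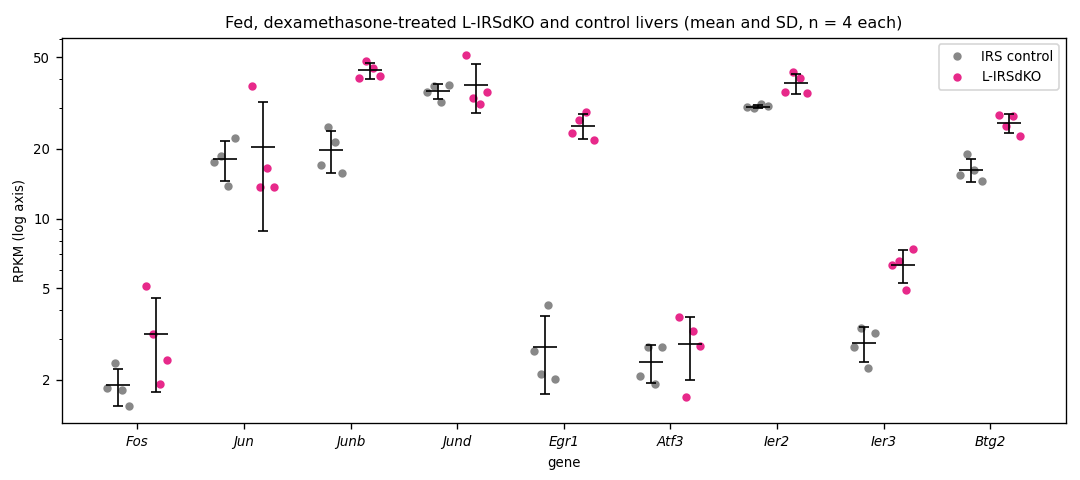
Level of 9 members, without *Fosb* (RPKM, log axis), in the 4 control and 4 L-IRSdKO livers, with 1 point per mouse and the group mean with its SD. The 4 L-IRSdKO livers lie above the 4 controls for *Egr1*, *Junb*, *Ier3*, *Btg2* and *Ier2*, and the groups overlap for the other members; over all tested genes, 12.1% were higher without overlap.

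Other immediate-early genes were read in the same livers, where 9.04% of all tested genes were higher and 8.32% lower. Of 7 tested AP-1 family genes that are no members, *Fosl2* (a Fos-related subunit, log2 difference 1.32) and *Jdp2* (0.63, a repressor that dimerizes with Jun) were higher and 0 lower. Of 9 further transcription factors, 4 were higher and 0 lower, with *Maff* at 1.82, *Nr4a2* at 0.95 and *Klf6* at 0.80. Of 21 genes for feedback, growth arrest and secreted factors, 4 were higher and 1 lower, namely *Ccn1* (a matricellular protein, -1.38). *Sik1*, a kinase that restrains CREB coactivators, was higher by 1.35 and *Ccn2* by 0.69. Of 17 upstream kinases and factors, *Rps6ka3* (0.51) and *Elk4* (0.44) were higher.

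Markers of other liver cells moved with this comparison. The summed level of 6 sinusoidal endothelium markers was 159 to 194 RPKM in L-IRSdKO livers and 125 to 150 RPKM in controls, with 4 of 6 higher, and that of 9 Kupffer cell and macrophage markers was 391 to 459 against 238 to 401 RPKM, with 3 of 9 higher. Their part in the differences of *Egr1*, *Junb*, *Ier3*, *Btg2* and *Ier2* was not tested. In bulk liver RNA, a change in the number of cells of a type and a change in RNA per cell cannot be told apart.

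The meal was compared in 4 settings, with different mice and, in the NRF experiment, another RNA preparation. In lean mice of the obesity experiment, 3 of 8 tested members were lower in fed than in unfed livers (*Egr1*, *Btg2* and *Junb*) and none was higher; 23.4% of all 11431 genes passed, 7.28% as lower. In obese mice 2 of 8 were lower (*Junb* and *Egr1*), where 7.65% of all genes passed, 2.48% as lower. Without overlap of the groups, 14.3% of all genes were lower and 29% higher in fed lean livers, and 11% were lower in fed obese livers.

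*Egr1* was at 4.29, 2.91 and 2.44 RPKM in unfed lean livers and at 0.566, 0.985 and 0.561 RPKM in fed lean livers. Every fed lean liver was below every unfed one, by a log2 difference of -1.61 ± 0.28 (SE, n = 3 per group; adjusted p = 0.0030). In obese mice *Egr1* was at 4.59, 4.25 and 3.40 RPKM unfed and at 0.573, 1.99 and 0.923 RPKM fed, again without overlap, with a log2 difference of -1.54 ± 0.28 (SE; adjusted p = 0.0118). Without fed obese replicate 3 the obese value was -1.48 and the adjusted p 0.0513.

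*Junb* was at 6.90, 8.45 and 6.03 RPKM in unfed lean livers and at 2.78, 5.17 and 3.60 RPKM in fed lean livers. It fell without overlap, by a log2 difference of -0.83 ± 0.21 (SE; adjusted p = 0.0144), which was no longer called without unfed lean replicate 2 (-0.71, adjusted p = 0.0580) or fed lean replicate 1 (-0.65, adjusted p = 0.0550). In obese mice *Junb* was at 10.6, 7.53 and 8.91 RPKM unfed and at 4.61, 3.39 and 3.30 RPKM fed. This drop was -1.16 ± 0.21 (SE; adjusted p = 0.0106), and -1.10 with an adjusted p of 0.0510 without fed obese replicate 2.

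*Btg2* was at 8.51, 5.22 and 7.62 RPKM in unfed lean livers and at 2.72, 3.13 and 3.27 RPKM in fed lean livers, without overlap, a log2 difference of -1.08 ± 0.22 (SE; adjusted p = 0.0055). In obese mice it was at 3.21, 5.95 and 3.31 RPKM unfed and at 1.97, 2.43 and 2.37 RPKM fed. Here too all fed livers were below all unfed ones, but the log2 difference of -0.71 did not pass (adjusted p = 0.0676).

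*Atf3* took the other direction in lean mice, at 0.859, 0.791 and 0.688 RPKM unfed and 1.90, 1.46 and 1.81 RPKM fed. The groups did not overlap and the log2 difference was 0.79 ± 0.27 (SE), just outside the threshold (adjusted p = 0.0512). *Jun* was at 9.38, 9.69 and 7.42 RPKM in unfed lean livers and at 5.27, 5.82 and 5.14 RPKM in fed lean livers, also without overlap, but its log2 difference of -0.65 ± 0.30 (SE) did not pass (adjusted p = 0.145). *Jund*, *Ier2* and *Ier3* had log2 differences between 0.08 and 0.21 in lean mice and none passed. *Fos*, below the limit for testing, was at 0.342, 0.412 and 0.367 RPKM in unfed lean livers and at 0.025, 0.294 and 0.106 RPKM in fed lean livers, values that did not overlap and rested on as little as 1 read.

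In obese mice the other members did not pass. Leaving out unfed obese replicate 2, which had the highest *Fos* (1.37 RPKM), *Jun* (6.22 RPKM), *Atf3* (1.38 RPKM) and *Btg2* of its group, added *Jun* (1.00, adjusted p = 0.0359) and *Atf3* (0.71, adjusted p = 0.0364) as higher after the meal. Tested as an interaction of meal and diet, 0 of 8 members differed in their response (0.744% of all genes did), with 2 at an unadjusted p under 0.05 (15% of all genes). The largest of these differences was that of *Jun*, 1.27 ± 0.43 (SE; adjusted p = 0.208), which was 1.66 with an adjusted p of 0.0358 without unfed obese replicate 2. For *Egr1* the difference between the diets was 0.07 (95% interval -0.82 to 0.95).

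Of related genes in fed lean livers, most did not pass, and more were lower than higher. Of all genes, 7.28% were lower and 16.1% higher. Of 6 further transcription factors tested, *Maff* (-1.96) and *Klf2* (-0.58) were lower and 0 higher, and of 4 AP-1 family genes *Jdp2* (-0.47) and *Atf7* (-0.37). Of 18 genes for feedback, growth arrest and secreted factors, 9 were lower and 2 higher, with *Gadd45g* at -2.67, *Plk3* at -2.08 and *Ccn2* at -1.46. Of 17 upstream genes *Elk4* (-0.93), *Mrtfb* (-0.75) and *Elk1* (-0.44) were lower. In obese mice *Maff* (-1.012) and *Plk3* (-1.13) were lower, and no gene of these lists was higher, where 2.48% of all genes were lower. Endothelial markers moved with the lean meal, where 5 of 6 were lower and the summed level was 56.0 to 62.6 RPKM fed against 77.0 to 91.4 RPKM unfed, while in obese mice 0 of 6 passed. Their part in the falls of *Egr1*, *Junb* and *Btg2* was not tested.

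In the NRF experiment, 1 of 6 tested members was lower at ZT14-fed than at ZT14-unfed, where 6.76% of all 10904 genes passed, 1.89% as lower. *Junb* was at 5.64 and 6.33 RPKM at ZT14-unfed and at 3.63 and 3.78 RPKM at ZT14-fed, a log2 difference of -0.62 ± 0.14 (SE, n = 2 per group; adjusted p = 0.0481). The 2 groups did not overlap, and 14.1% of all genes were lower without overlap. The *Junb* call was lost when any of the 4 libraries was left out, with log2 differences of -0.70 to -0.55 and adjusted p between 0.0683 and 0.224. *Btg2*, at 3.06 and 2.72 RPKM unfed and 2.62 and 2.90 RPKM fed, overlapped (-0.06, 95% interval -0.32 to 0.20). *Egr1* was at 0.056 to 0.401 RPKM in all 6 NRF livers and was not tested. Of the 19 genes for feedback, growth arrest and secreted factors, 3 were higher and 4 lower after this meal, with *Phlda1* at 1.98, *Plk3* at -1.85 and *Socs3*, a suppressor of cytokine signaling, at 1.56.

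Among injected mice, 0 of 9 members differed between fed and unfed vehicle livers (3.13% of all 11248 genes did), with 2 members at an unadjusted limma p under 0.05 (19.3% of all genes). These were *Fos* and *Atf3*, the latter higher by 0.53 (95% interval 0.041 to 1.015) with overlapping groups and an adjusted limma p of 0.220. *Fos* was at 0.423, 0.660, 0.453 and 0.280 RPKM in unfed livers and at 0.446, 1.73, 1.07 and 1.25 RPKM in fed livers. Of the fed livers 3 of 4 were above all unfed ones, and the log2 difference was 0.71 ± 0.25 (SE, n = 4 per group; adjusted p = 0.123). *Egr1*, *Junb* and *Btg2* had log2 differences of 0.15 (95% interval -0.84 to 1.14), -0.21 (-1.62 to 1.19) and -0.12 (-0.70 to 0.46). The estimate in lean mice of the obesity experiment, read without its own interval, lay inside this interval for *Junb* and outside it for *Egr1* and *Btg2*. The experiments were not tested against each other. The median log2 difference of all genes was 0.10 for the meal in vehicle livers, 0.12 for the meal in NRF livers and -0.14 for dex and S961 against vehicle, and 0.001, -0.001 and -0.002 after median-ratio scaling. Of related genes, the transcription factor *Klf10* (0.70) and the receptor *Egfr* (0.68) were higher in fed vehicle livers. Kupffer cell and macrophage markers moved with the meal in these mice, with 3 of 9 higher and summed levels of 118.8 to 123.9 RPKM fed against 79.4 to 87.0 RPKM unfed, and their part in the values of *Fos* was not tested.

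**Figure D3:**
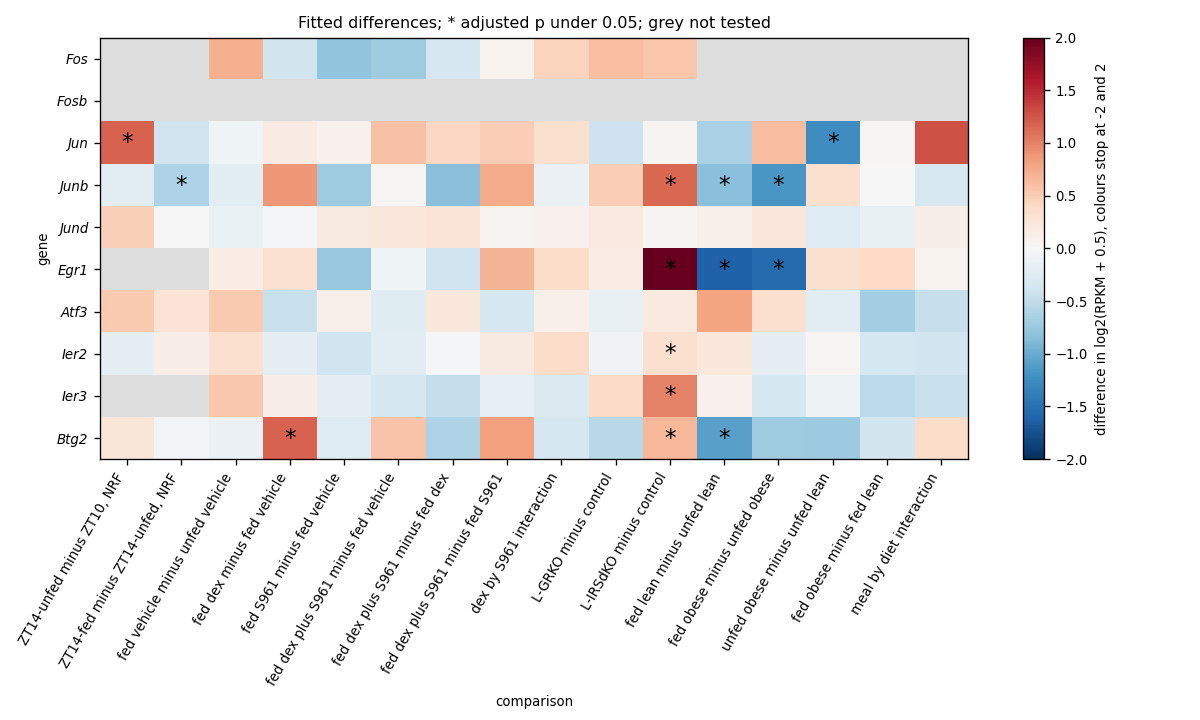
Log2 difference of each tested member, on the log2(RPKM + 0.5) scale, in the 16 comparisons, as colour, with called values marked by an asterisk and untested cells grey. *Egr1* in L-IRSdKO livers, at 3.02, lies beyond the end of the colour scale, and *Egr1*, *Junb* and *Btg2* are the members lower in fed lean livers.

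Between ZT10 and ZT14-unfed, both without food, 1 of 6 tested members was higher and 0 lower, against 8.99% of all 10904 genes, 1.98% as higher. *Jun*, the partner subunit of Fos in AP-1, was at 1.32 and 1.06 RPKM at ZT10 and at 3.49 and 3.12 RPKM at ZT14-unfed. Its values at ZT14-unfed were more than 2 times those at ZT10, a log2 difference of 1.17 ± 0.18 (SE, n = 2 per group; adjusted p = 0.0130). Without ZT10 replicate 1 it was 1.29 (adjusted p = 0.0522) and without ZT10 replicate 2 it was 1.06 (adjusted p = 0.0705). *Atf3* was at 0.316 and 0.329 RPKM and then at 0.819 and 0.553 RPKM, and *Jund* at 7.03 and 4.74 RPKM and then at 7.59 and 8.94 RPKM. Neither passed, at 0.52 (adjusted p = 0.188) and 0.48 (adjusted p = 0.201). Of 19 genes for feedback, growth arrest and secreted factors, *Gadd45b* (1.23), *Zfp36l1* (0.97) and *Sik1* (0.88) were higher at ZT14-unfed, and of 17 upstream genes the kinases *Rps6ka1* (-0.66), *Mapk9* (-0.48) and *Mapk8* (-0.44) were lower.

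Dex before the meal raised 1 of 9 members in fed livers and lowered 0, where 3.19% of all 11248 genes passed, 1% as higher. *Btg2* was at 2.77, 5.37, 3.58 and 4.55 RPKM in fed vehicle livers and at 10.98, 13.3, 9.24 and 6.21 RPKM in fed dex livers. All 4 dex livers were above all 4 vehicle livers, as for 2.37% of all genes. The *Btg2* mean was 2.44-fold higher, with a log2 difference of 1.18 ± 0.28 (SE, n = 4 per group; adjusted p = 0.0247). Within the first library series (replicates 1 to 3), it was 1.43 (adjusted p = 0.0172). The call was lost without fed vehicle replicate 1 (1.03, adjusted p = 0.0844), fed vehicle replicate 3 (1.13, adjusted p = 0.0587), fed dex replicate 1 (1.11, adjusted p = 0.0838) or fed dex replicate 2 (1.03, adjusted p = 0.101). Endothelial markers were lower in the same comparison, 3 of 6 of them, with sums of 63.5 to 84.4 against 87.9 to 100.3 RPKM. The sums of 9 Kupffer cell and macrophage markers were 63.0 to 116 against 118.8 to 123.9 RPKM, also without overlap. The part of both in the value of *Btg2* was not tested.

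The other 8 members had log2 differences between -0.44 (*Atf3*) and 0.86 (*Junb*) after dex, and none passed. *Junb* was at 1.93, 7.63, 11.4 and 26.5 RPKM in fed vehicle livers, a range so wide that the 17.95, 19.3, 12.8 and 13.8 RPKM of the dex livers lay inside it (0.86, 95% interval -0.54 to 2.26). *Egr1* was at 0.717, 9.29, 1.95 and 3.01 RPKM after vehicle and at 3.87, 3.86, 3.31 and 2.81 RPKM after dex, where the dex livers differed little from each other. Of the 19 genes for feedback, growth arrest and secreted factors, 3 were higher with dex and 0 lower: the stress-response genes *Gadd45b* (2.37) and *Gadd45g* (2.33) and the MAPK phosphatase *Dusp1* (1.67). Of all genes, 1% were higher with dex. *Mrtfb*, a coactivator of serum response factor, was higher by 0.59.

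S961 alone changed 0 of 9 members in fed livers (1.89% of all genes passed), with 1 at an unadjusted limma p under 0.05 (14.3% of all genes). That was *Fos*, at 0.837, 0.561, 0.177 and 0.188 RPKM with S961 against 0.446, 1.73, 1.07 and 1.25 RPKM with vehicle. The groups overlapped through fed vehicle replicate 1, and the log2 difference was -0.78 ± 0.25 (SE; adjusted p = 0.132). It was -1.02 (adjusted p = 0.0445) without that mouse and -0.97 (adjusted p = 0.0486) without S961 replicate 1. *Klf10*, a TGF-beta-induced factor, was the 1 called gene of 6 further transcription factors, higher by 1.22. Of the 9 Kupffer cell and macrophage markers 2 were lower with S961, and their sum was 62.0 to 95.6 RPKM, below all fed vehicle livers. Their part in the values of *Fos* was not tested.

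Dex and S961 together changed 0 of 9 members relative to vehicle, where 10.6% of all genes passed, with 1 member at an unadjusted limma p under 0.05 (25.8% of all genes). This comparison and the former pair share the fed vehicle livers. *Fos* was again the member nearest the threshold, at 0.542, 0.580, 0.268 and 0.415 RPKM (-0.72 ± 0.25, SE; adjusted p = 0.0741), and it passed without fed vehicle replicate 1 (-0.95, adjusted p = 0.0185). *Btg2* was at 8.19, 5.96, 4.25 and 6.59 RPKM, between the dex and the vehicle livers, and differed from vehicle by 0.56 (95% interval -0.02 to 1.15; adjusted p = 0.210). Of the 19 genes for feedback, growth arrest and secreted factors 4 were higher and 2 lower, with *Gadd45b* at 3.88, and the transcription factor *Maff* was higher by 1.39. Of the Kupffer cell and macrophage markers 3 of 9 were lower, with sums of 70.6 to 111.1 RPKM that again lay below all fed vehicle livers, and 1 of 6 endothelial markers was lower; their part was not tested.

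Against S961 alone, dex and S961 changed 0 of 9 members (1.91% of all genes passed), with 1 at an unadjusted limma p under 0.05 (12.1% of all genes). *Btg2* was at 3.13, 5.80, 1.80 and 3.13 RPKM with S961 alone, and 3 of 4 of these livers were below all 4 that had dex as well. The log2 difference was 0.83 ± 0.28 (SE; adjusted p = 0.162). With the replicate number as a block the adjusted p was 0.0480, and in these 2 groups mice with the same number deviated together, most of all those of replicate 4. Without S961 replicate 2 it was 1.08 (adjusted p = 0.0411). Against dex alone, dex and S961 changed 0 of 9 (2.95% of all genes), with 1 at an unadjusted limma p under 0.05 (15.8% of all genes), again *Btg2* (-0.61 ± 0.28, SE; adjusted p = 0.286). The interaction of dex and S961 passed for 0 of 9 members and 0 of 11248 genes, with 0 members and 4.56% of all genes at an unadjusted limma p under 0.05, and for *Btg2* it was -0.35 (95% interval -1.17 to 0.47).

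**Figure D4:**
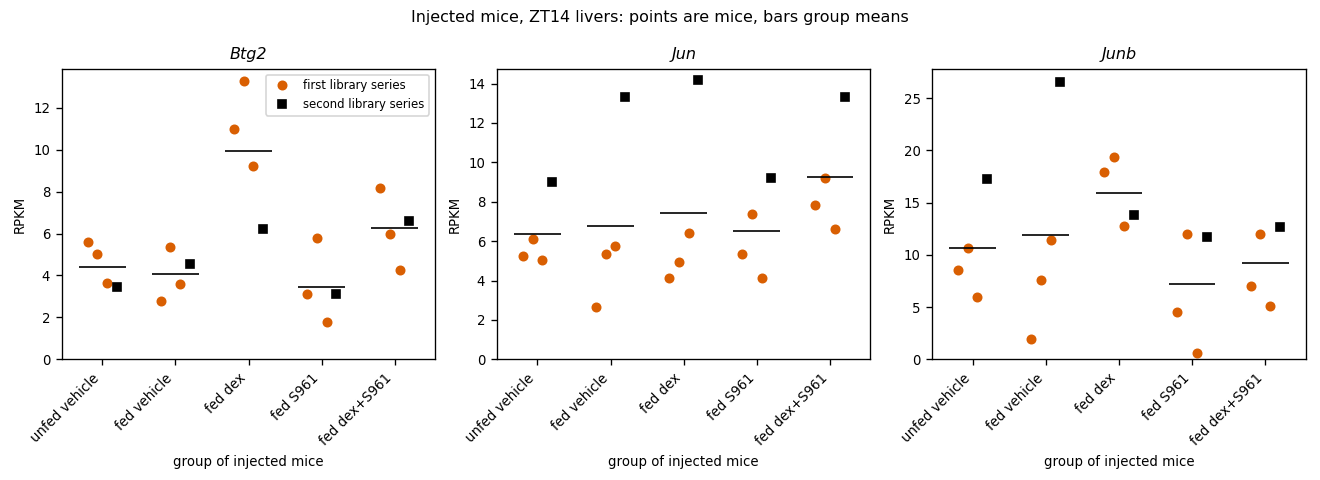
Level of *Btg2*, *Jun* and *Junb* (RPKM, linear axes from 0) in the 20 injected mice, with 1 point per mouse in each of the 5 groups, bars at the group means, and black squares for replicate 4, the second library series. The 4 fed dex livers hold the highest mean of *Btg2* (9.93 RPKM), and replicate 4 has the highest *Jun* in each group.

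Replicate 4 of each injected group has a library number apart from those of replicates 1 to 3 and stood apart for the Jun family. *Jund* was at 16.8 to 25.9 RPKM in the 5 replicate 4 livers and at 5.06 to 12.3 RPKM in the 15 others, and *Jun* at 9.01 to 14.2 against 2.66 to 9.22 RPKM. No other member had replicate 4 at one end of the range in all 5 groups. The SD of log2 values within groups of injected mice was 1.05 for *Junb*, 0.74 for *Egr1*, 0.69 for *Jund* and 0.60 for *Jun*, while the median over all genes was 0.23. Fitted on the first series alone, the numbers of called members were those given above.

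L-GRKO livers, unfed and without dex, differed from AAV-GFP controls in 0 of 9 members, against 6.68% of all 11646 genes, with 2 members at an unadjusted limma p under 0.05 (20.1% of all genes). *Btg2* was at 5.56, 4.76, 4.35 and 3.26 RPKM in controls and at 3.98, 2.41, 2.48 and 2.71 RPKM in L-GRKO livers. The groups overlapped through control replicate 4 and L-GRKO replicate 1, and the log2 difference was -0.56 ± 0.18 (SE, n = 4 per group; adjusted p = 0.0992). *Junb* was at 6.49, 5.59, 5.91 and 8.48 RPKM in controls and at 9.52, 7.88, 11.7 and 8.93 RPKM in L-GRKO livers, with 0.49 ± 0.15 (SE; adjusted p = 0.080).

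Control replicate 4 bore on both values. Without it, *Junb* (0.61, adjusted p = 0.0304) passed as higher and *Btg2* (-0.68, adjusted p = 0.0463) as lower. The same liver had 7.99 RPKM of *Egr1*, where the other controls had 0.627, 0.980 and 0.830 RPKM and L-GRKO livers 1.12, 1.014, 4.72 and 1.72 RPKM, so that the 95% interval of the *Egr1* difference ran from -1.18 to 1.48. L-GRKO replicate 3 had the highest *Jun* (7.87 RPKM), *Fos* (2.16 RPKM) and *Egr1* of its group, and without it *Jun* passed as lower (-0.70, adjusted p = 0.0420). Red blood cell markers were higher in L-GRKO livers, 4 of 5 of them, with sums of 482 to 983 against 334 to 439 RPKM, and their part in the values of *Junb* and *Btg2* was not tested.

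Other immediate-early genes passed in L-GRKO livers, where 4.46% of all genes were higher and 2.22% lower. *Gadd45g*, which dex raised in the injected mice, was lower by a log2 difference of -3.64, from a mean of 43.8 to one of 2.91 RPKM. *Zfp36*, which promotes mRNA decay, was lower (-1.012), *Ccn1* was higher (0.79) and the transcription factor *Csrnp1* was lower (-0.80). Of 17 upstream genes *Egfr* (-0.57) was lower and *Rps6ka1* (0.57) higher.

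Diet was compared within each feeding state, on the same libraries as the meal. In unfed livers 1 of 8 tested members was lower in obese than in lean mice and 0 were higher, against 5.22% of all 11431 genes, 1.7% as lower. Of all genes, 6.73% were lower in unfed obese livers without overlap. *Jun* was at 9.38, 9.69 and 7.42 RPKM in unfed lean livers and at 1.74, 6.22 and 3.47 RPKM in unfed obese livers, without overlap, a log2 difference of -1.25 ± 0.30 (SE, n = 3 per group; adjusted p = 0.0404). The call was lost without unfed obese replicate 3 (-1.26, adjusted p = 0.0865) or without unfed lean replicate 1 (-1.20, adjusted p = 0.109), 2 (-1.18, adjusted p = 0.111) or 3 (-1.36, adjusted p = 0.0686). Without unfed obese replicate 2 the *Jun* difference was -1.64, and *Btg2* passed as lower (-0.99, adjusted p = 0.0216). With all mice *Btg2* was not called (-0.73, adjusted p = 0.0750).

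Of 18 genes for feedback, growth arrest and secreted factors, 6 were lower in unfed obese livers and 0 higher, with *Gadd45g* at -3.57, *Dusp1* at -1.88 and *Gadd45b* at -1.58, and *Klf2*, a flow-responsive factor of endothelium, was lower by -1.0035 among the transcription factors. Of all genes, 1.7% were lower in unfed obese livers. Endothelial markers were lower in 5 of 6 cases, with sums of 42.6 to 56.8 RPKM in unfed obese and 77.0 to 91.4 RPKM in unfed lean livers, and their part in the value of *Jun* was not tested. In fed livers 0 of 8 members differed between the diets, against 0.507% of all genes, with 3 at an unadjusted limma p under 0.05 (20% of all genes). Those were *Ier2* (-0.35, adjusted p = 0.117), *Ier3* (-0.54, adjusted p = 0.170) and *Atf3* (-0.68, adjusted p = 0.196), whose fed obese livers were all below the fed lean ones. Of all genes, 14.9% were lower in fed obese livers without overlap. *Atf3* was at 0.957, 0.877 and 0.833 RPKM in fed obese livers and at 1.90, 1.46 and 1.81 RPKM in fed lean livers.

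Whether the members were high in the same mice was asked from the deviations of each liver from its group mean, over 54 libraries and 45 pairs of genes. Of the 45 pairs 42 had a positive Pearson's r, with a median of 0.24, and 3 passed a permutation test within groups after Benjamini-Hochberg adjustment. Pairs of other genes were not read, so it is unknown how many of those would be positive. The permutations also exchanged livers of the first and second library series within groups of injected mice. *Jun* and *Jund* had the highest r, 0.77 (adjusted permutation p = 0.00045), with a Spearman's rho of 0.68 (adjusted permutation p = 0.00045). These are the smallest values that the permutations can give after adjustment. The r of *Jun* and *Jund* was 0.70 without the 2 libraries farthest from the median of *Jun* and 0.65 without the second library series, and within single experiments it ran from 0.15 (L-GRKO, 8 livers) to 0.93 (L-IRSdKO, 8 livers), with 0.92 in the injected mice and 0.52 in the obesity experiment. *Atf3* and *Btg2* had an r of 0.53 (adjusted permutation p = 0.0268) and a rho of 0.51, and 0.58 without the second series. *Junb* and *Jund* had an r of 0.70 (adjusted permutation p = 0.042) but a rho of 0.31, and did not pass without the second series. By rank, *Junb* and *Egr1* passed, with a rho of 0.51 (adjusted permutation p = 0.0291). Without the second series 6 of 45 pairs passed, among them *Fos* with *Jun* (0.61) and *Fos* with *Jund* (0.51).

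**Figure D5:**
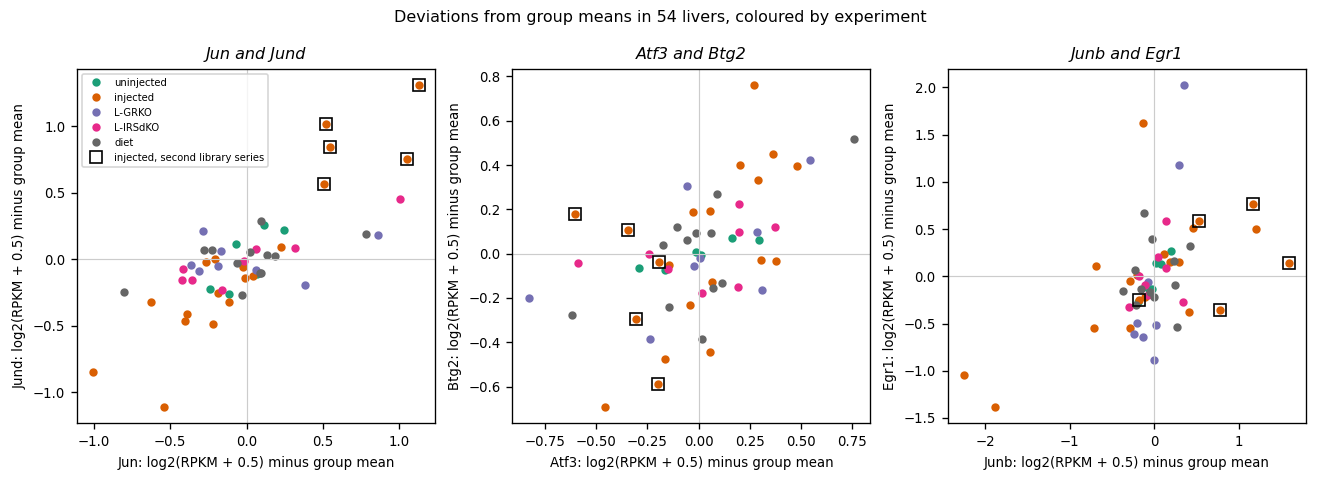
Deviation of each of the 54 livers from its group mean, on the log2(RPKM + 0.5) scale, for *Jun* and *Jund*, *Atf3* and *Btg2*, and *Junb* and *Egr1*, with 1 point per mouse, coloured by experiment, and open squares around the second library series of the injected mice. For *Jun* and *Jund* (r = 0.77 over 54 livers) the 5 squares lie at the upper right, above the other injected mice.

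The genes most like the members were taken from 10512 genes, by Pearson's r with the mean deviation of the 6 members above the limit in all 5 experiments. The 5 highest were *Ptms* (0.85), *Cox6a1* (0.83), *Pld3* (0.82), *Igfbp4* (0.81) and *Col18a1* (0.81), as a description over 54 libraries. Within experiments, r was 0.88 to 0.94 in the injected mice, 0.45 (*Pld3*) to 0.85 (*Col18a1*) in the NRF, 0.15 (*Cox6a1*) to 0.91 (*Igfbp4*) in the L-IRSdKO, -0.65 (*Col18a1*) to 0.66 (*Pld3*) in the L-GRKO and -0.19 (*Ptms*) to 0.67 (*Col18a1*) in the obesity experiment.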

How the data were processed

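RNA was measured in 54 livers of single mice from 5 experiments. STAR and the mm9 genome served the authors for alignment, and they deposited RPKM values per RefSeq transcript, the unit used here. The authors' own tests ran in DESeq2 and were not used. RPKM corrects for depth and transcript length, but not for a few abundant genes that take a changing share of the reads. The counting tool, strand and duplicate handling are not given in the sources used here. Peaks were called by the authors with HOMER, and the deposited lists hold positions only.

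Of 35707 RefSeq IDs, 35402 had a symbol and 305 had none, and each of the 24308 symbols kept the ID with the highest mean. Each experiment was fitted apart on log2(RPKM + 0.5) with limma 3.58.1 in R 4.3.3 (eBayes with trend), all groups of an experiment together without a replicate block, over all genes whose mean in the experiment reached 0.5 RPKM. P-values were adjusted by Benjamini-Hochberg over all genes tested, and 0.05 was the threshold. Intervals are 95% intervals of the fit. Pairs of members were compared with 100000 permutations within groups. Python 3.11.15 with numpy 2.4.6, scipy 1.17.1, pandas 2.3.3 and matplotlib 3.10.9 was used for the rest. Peaks were counted within 50 kb of the start site, and promoters are RefSeq sequences of GRCm38.p6. The fits were tested on simulated data.

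The log2 differences of all tested members are shown as colour in the plot of the 16 comparisons. For each comparison the text names every member that passed, but not every member that did not pass or was not tested. It names up to 3 called genes of each list with the largest log2 difference, the 5 genes most like the members, and *Nr3c1*, *Irs1* and *Irs2*. The members and lists were chosen with earlier results of these data known. Markers of stellate cells, cholangiocytes, lymphocytes and neutrophils were summed too; of these, *Dcn* was higher and *Krt7* lower in L-IRSdKO livers, *Lrat* higher in L-GRKO livers and *Reln* lower in fed lean livers. Of 6 hepatocyte markers 1 was lower in L-IRSdKO (*Ttr*) and 1 in L-GRKO livers (*Cps1*).

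Replicate numbers in the labels were checked for pairing by the correlation of deviations between livers of the same number. It ran from -0.03 to 0.05 in the NRF, -0.12 to 0.61 in the injected, -0.05 to 0.15 in the L-GRKO, -0.06 to 0.06 in the L-IRSdKO and -0.20 to 0.22 in the obesity experiment. Every pair was above 0.1 for dex and S961 against S961 alone and against dex alone, but the main fits used no block there either. In both cases replicate 4, the second library series, had the highest correlation (0.59 and 0.44). A pairing of mice and a difference between library series cannot be told apart here. The sign of pairing comes from the data, not the labels. The settings varied were the pseudocount (0.1 and 1), the filter (none or 2 RPKM), median-ratio and quantile scaling, other variance models, summed IDs, a block, a library series term, a threshold of 0.01, the compared groups alone, each library left out, and distances of 20 and 100 kb.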

Additional observations from a re-analysis of the deposited data

Results flagged for a closer look

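4 of 90 pairs of a gene and a group with 4 mice held 1 liver far from the other 3, where chance gives about 1 in 20. *Jun* was at 7.87 RPKM in L-GRKO replicate 3, with the other L-GRKO livers at 3.10 to 3.56 RPKM, and *Jund* was highest in the same liver, at 14.3 RPKM against 11.7 to 12.1 RPKM. *Jun* was at 37.6 RPKM in L-IRSdKO replicate 1, with the others at 13.7 to 16.5 RPKM. *Egr1* was at 7.99 RPKM in AAV-GFP control replicate 4, with the others at 0.627 to 0.980 RPKM.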

How the results depend on the processing

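The 14 member differences that passed kept their direction in all 165 values under alternatives and 92 values with a library left out, and 144 and 68 of these passed. The number of called members moved as follows. Between ZT10 and ZT14-unfed it was 0 without the filter and at 0.01, and 0 to 1 with a library left out. For the meal in NRF livers it was 0 with a pseudocount of 1, no filter, quantile scaling, no variance trend, the replicate block, summed IDs and 0.01, and 0 to 0 with a library left out. For the meal in vehicle livers it was 1 (*Atf3*, adjusted p = 0.0437) with the replicate block. For dex it was 0 at 0.01 and with the compared groups alone, and 0 to 1 with a library left out. For S961 it was 0 to 1 and for dex and S961 against vehicle 0 to 1 with a library left out, and 1 for the latter with the library series as a term (*Fos*, adjusted p = 0.0488). For dex and S961 against S961 it was 1 with the replicate block and 0 to 1 with a library left out. It was 0 to 2 for L-GRKO and 4 to 5 for L-IRSdKO with a library left out, and 4 for L-IRSdKO, without *Ier2*, with no variance trend, with the replicate block (*Ier2* adjusted p = 0.0691) and at 0.01. For the lean meal it was 5 with the compared groups alone (adding *Atf3* and *Jun*), 4 with a pseudocount of 1, no variance trend and a robust fit (adding *Atf3*), 2 at 0.01 (without *Junb*) and 2 to 3 with a library left out, and for the obese meal 0 at 0.01, 1 with the compared groups alone and 1 to 4 with a library left out. For unfed obese against unfed lean it was 0 without the filter, at 0.01 and with the compared groups alone, and 0 to 2 with a library left out. For fed obese against fed lean it was 1 with the compared groups alone (*Atf3*), and for the interaction of meal and diet 0 to 1 with a library left out. Of the correlated pairs, 6 passed without the second library series. The replicate block changed the number of called members in no other comparison than those named. In the labels, livers of the same replicate number shared only that number, except that replicate 4 of the injected groups also had library numbers apart from the others. The cause of these changes was not tested.

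Depth limits *Fos*, *Fosb*, *Ier3* and *Atf3* most, with a median of 7.25 reads for *Ier3* and 11.1 for *Fos* in the injected mice. With 2 mice per group, calls in the NRF experiment rest on 6 livers. The spread of each gene is moderated toward a trend over all tested genes. P-values set a difference against the spread between these mice only.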
